A study of Mus musculus with 3 samples.

Results

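The genes described here are 6 members of the angiotensin system, Agtr2, Agtr1a, Agt, Ace, Atp6ap2 and Agtrap, out of 18193 genes with a probe set of their own on the array. They were read from all 10 probe sets annotated to them, on 3 arrays of cultured mouse ocular pigment epithelium. The members were chosen by the signal of Agtr2, which was far lower in the iris culture than in the other cultures, so the values of Agtr2 against the iris are a description and carry no test. The series compared pigment epithelium of the iris (IPE), the ciliary body (CBPE) and the retina (RPE), and its title concerns thrombospondin-1 and T cells. All cultures came from adult C57BL/6 mice aged 6 to 8 weeks, with no allele or added agent named in the labels, and were left overnight without serum before total RNA was taken. IPE and CBPE had been grown in RPMI 1640 with 10% fetal bovine serum and RPE in DMEM with 20%, so in comparisons with RPE the tissue and the medium cannot be told apart. The labels do not say how many animals gave each culture. There is 1 array per culture, so no replicate error exists and no p-value is given; every fold compares single measurements.

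The angiotensin system is best known as a circulating hormone cascade that raises blood pressure, and many tissues, the eye included, also hold local components. Renin cuts angiotensinogen (Agt) to angiotensin I, and angiotensin-converting enzyme (Ace) trims that to angiotensin II. Angiotensin II acts on the type 1 receptor (Agtr1a and its paralog Agtr1b in mice), which drives contraction, growth and salt retention, and on the type 2 receptor (Agtr2), which often opposes the type 1 receptor and is abundant in fetal mesenchyme. Agtrap binds the type 1 receptor and promotes its internalisation. Atp6ap2, the prorenin receptor, is also an accessory subunit of the vacuolar proton pump (V-ATPase).

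The stretches of 150 bases before the RefSeq start sites are shown for 3 members, one that was low in IPE (Agtr2), one that was high in IPE (Ace, its upstream start) and one within 2-fold in all comparisons by the probe set that represents it (Atp6ap2). Capitals mark TATAA, the core of a TATA box, searched on both strands, whose occurrences may overlap. The sequences are from RefSeq, build GRCm38.p6, all on the plus strand: chrX:21484474-21484623 for Agtr2, chr11:105967798-105967947 for Ace and chrX:12587609-12587758 for Atp6ap2.
Agtr2: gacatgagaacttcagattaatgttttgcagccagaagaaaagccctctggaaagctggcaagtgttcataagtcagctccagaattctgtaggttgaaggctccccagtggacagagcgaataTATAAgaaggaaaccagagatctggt
Ace: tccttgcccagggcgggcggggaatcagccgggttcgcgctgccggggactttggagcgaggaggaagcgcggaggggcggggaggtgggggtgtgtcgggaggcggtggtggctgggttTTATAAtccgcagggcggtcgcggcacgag
Atp6ap2: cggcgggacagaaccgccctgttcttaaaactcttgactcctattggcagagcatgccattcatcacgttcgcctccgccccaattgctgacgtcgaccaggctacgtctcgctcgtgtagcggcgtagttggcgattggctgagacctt
On the gene's strand and between 45 and 20 bases before the start, TATAA was found for Agtr2, Ace (upstream start) and Agt, beginning 26, 29 and 30 bases before it. It was not found there for Atp6ap2, Agtrap or the second Ace start. Of 32851 promoters in the table, 3.70% hold it in that stretch on that strand, and 22.8% anywhere in the 250 bases before the start on either strand. A match describes letters only. Of the 6 members 5 were matched, with Agtr1a as the exception. The stretch before the Agtr2 start was also poor in GC, at 38.4% over 250 bases against a median of 52.4% over all promoters, whereas that of Ace reached 67.2% and that of Atp6ap2 59.2%.

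Signals are linear intensities on a scale set by the authors. The floor of an array is the median over its probe sets other than controls, 14.5 (IPE), 17.3 (CBPE) and 16.8 (RPE), and probe sets for absent bacterial transcripts reached 20.2 on the CBPE array. A gene was called different when its signals differed at least 2-fold with at least 1 above its floor. For scale, where a gene had several probe sets brighter than 100, their log2 differences disagreed with a pooled SD of 0.45 for RPE against IPE, 0.49 for CBPE against IPE and 0.29 for RPE against CBPE. The arrays differed in quality measures: the 3′ to 5′ signal ratio of the Actb controls was 1.50 in IPE against 2.26 in CBPE and 2.25 in RPE, and that of Gapdh was 0.940 against 1.23 and 1.25. The spiked hybridisation controls were 2.58 times as bright in CBPE as in IPE, with geometric means of 3192 and 1239, and gave 1941 in RPE. Every comparison with IPE rests on its single array, and the part of these array measures in the results was not tested.

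Across the members, 3 of the 6 genes were at least 2-fold different between RPE and IPE and the same 3 between CBPE and IPE, where 20.3% and 24.3% of all genes tested were. Agtr2 was higher outside the iris, and Ace and Agtrap were lower. Between RPE and CBPE none of the 5 members tested was 2-fold different, against 8.01% of all genes. The rule used the comparisons with IPE, so nothing is read from those counts. Both comparisons with IPE share its array.

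**Figure D1:**
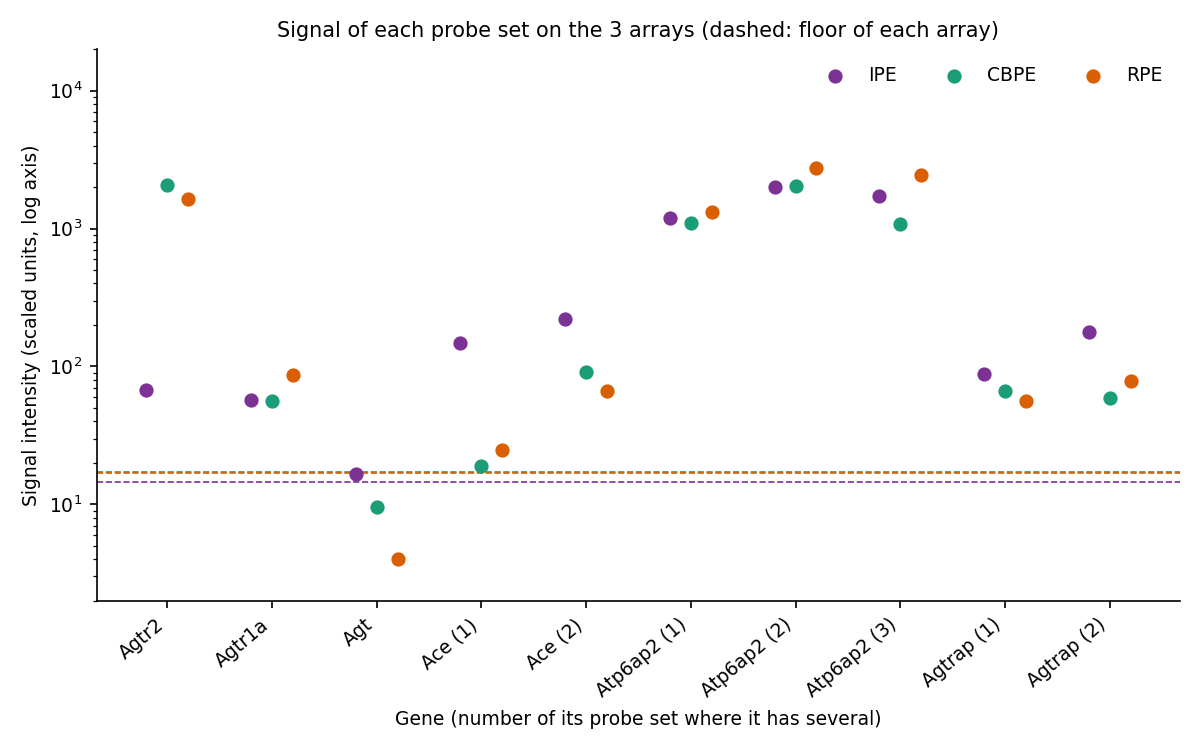
Signal intensity (log axis) of the 10 probe sets of the 6 genes on the IPE, CBPE and RPE arrays, 1 point per array, with each array's floor as a dashed line. Agtr2 sits at 67.8 in IPE against 2074 and 1644, Ace and Agtrap are highest in IPE by every probe set, and Agt lies near or under the floors.

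Agtr2, the type 2 angiotensin II receptor, gave a signal of 67.8 (IPE), 2074 (CBPE) and 1644 (RPE). The IPE signal was the lowest and still above that array's floor of 14.5, while the CBPE and RPE signals lay close together. CBPE was 30.6-fold and RPE 24.3-fold above IPE, log2 differences of 4.94 and 4.60. RPE stood below CBPE by 0.34 on the log2 scale, a ratio of 1.26, against a disagreement between probe sets of 0.29. Only 13 of 12446 genes tested had a larger difference toward RPE, and 16 of 12831 a larger one toward CBPE. Ranked by the smaller of its differences from IPE, Agtr2 came after 10 of 11932 genes, and after 5 of the 10244 genes above the floor on all 3 arrays. Agtr2 has 1 probe set, so no second one could check the value.

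**Figure D2:**
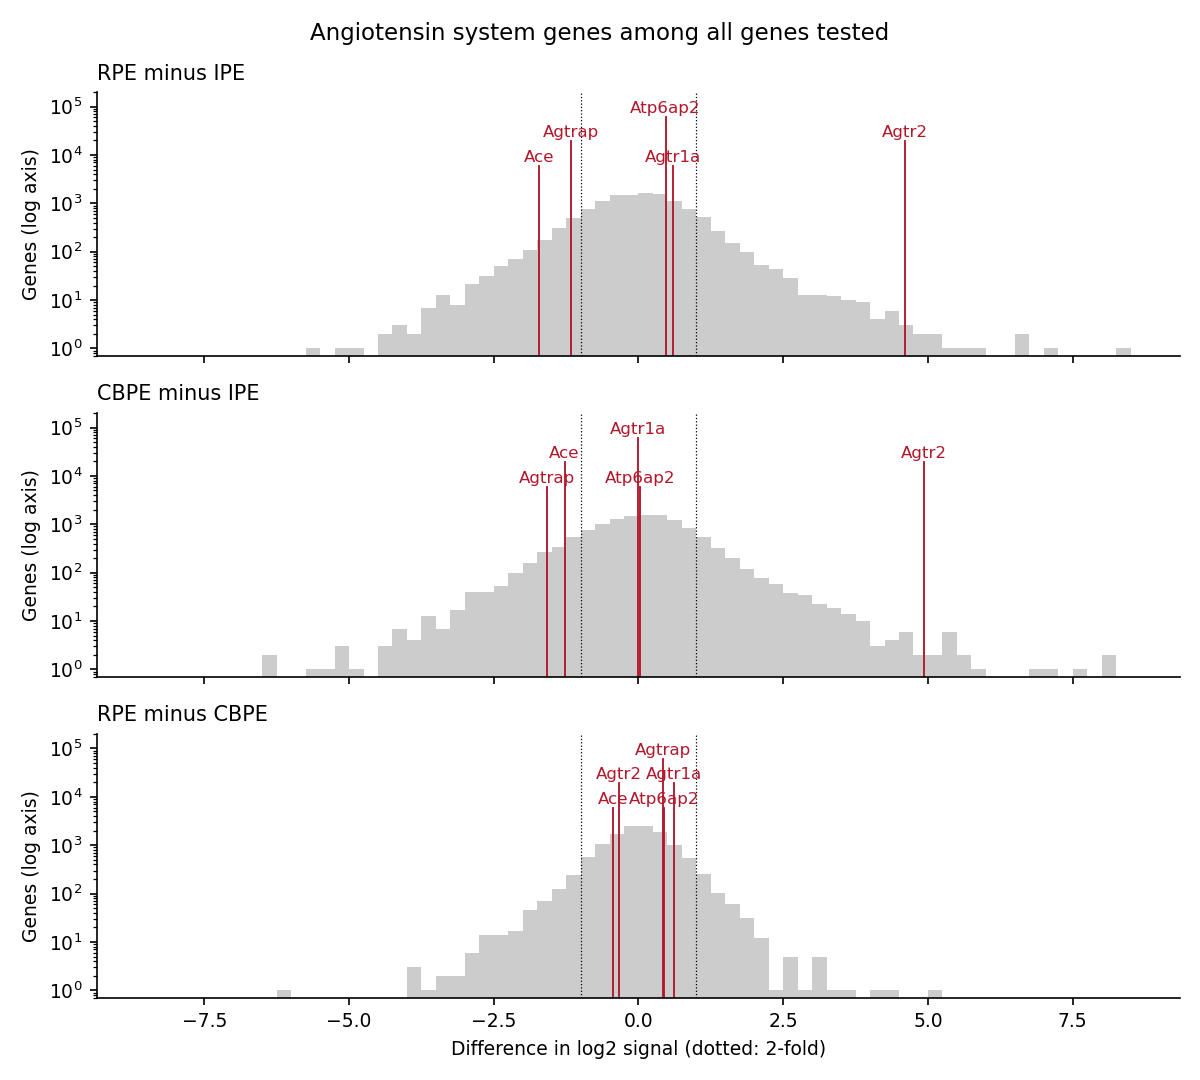
Histograms of the difference in log2 signal over all genes tested (number of genes on a log axis), 1 panel per comparison, with the members as red lines and the 2-fold limits dotted. Agtr2 lies at 4.60 and 4.94 in the comparisons with IPE and at -0.34 between RPE and CBPE. Agt is left out because it was above the floor on 1 array only.

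The type 1 receptor gene Agtr1a showed no such gap between IPE and the others. Its single probe set gave 57.1 (IPE), 56.5 (CBPE) and 86.3 (RPE), all above the floors. RPE was the highest, 1.51-fold above IPE and 1.53-fold above CBPE, and IPE and CBPE were level, with a log2 difference of -0.02. The log2 difference was 0.61 for RPE minus CBPE, where the SD between probe sets is 0.29, and 0.60 for RPE minus IPE, where it is 0.45. No Agtr1a difference reached 2-fold. The direction between CBPE and IPE depended on scaling, with 0.36 after quantile normalization and -0.27 with equal medians. The paralog Agtr1b lay under the floor on every array, at 5.2, 1.9 and 5.5 in IPE, CBPE and RPE.

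The precursor gene Agt was hardly detected. Its probe set gave 16.6 in IPE, just above the floor of 14.5, and 9.6 in CBPE and 4.0 in RPE, both under the floor. No fold is given, since the IPE signal does not exceed the floors of the other arrays. An Agt difference between cultures was not detectable on these arrays.

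Ace, the enzyme that makes angiotensin II, was highest in IPE by both of its probe sets. The brighter probe set gave 220.3 (IPE), 90.9 (CBPE) and 66.8 (RPE), so that IPE was 2.42-fold above CBPE and 3.30-fold above RPE. The other gave 146.8 (IPE), 19.0 (CBPE) and 24.7 (RPE), or at least 7.27-fold above CBPE and 5.94-fold above RPE. Both probe sets separated IPE from the other cultures, and the size of the fold depended on the probe set. The log2 differences of RPE minus CBPE were -0.44 and 0.38, and the CBPE signal of the dimmer probe set lay under the 20.2 of the absent controls, so no order is given for that pair. After quantile normalization the brighter probe set differed by -0.97 between CBPE and IPE, short of 2-fold. Ace is also an endothelial gene. The 8 endothelial markers summed to 1165 (IPE), 1707 (CBPE) and 546.5 (RPE), with 3 above the floor in IPE, 7 in CBPE and 4 in RPE. Eng was highest in IPE like Ace, at 362.3, 293.2 and 240.6, and Emcn was at 745.1, 1115 and 211.2, whereas Pecam1 and Cdh5 were above the floor in CBPE only, at 54.6 and 108.3. Pigment cell markers were highest in IPE like Ace, at a summed signal of 4793 over 8 genes against 600.8 in CBPE and 1566 in RPE; the part of either list in the Ace result was not tested.

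Agtrap, whose product binds the type 1 receptor, was also highest in IPE by both probe sets. The brighter gave 177.3 (IPE), 59.0 (CBPE) and 78.7 (RPE), 3.01-fold and 2.25-fold in favour of IPE. The other gave 88.3, 66.9 and 56.0, only 1.32-fold and 1.58-fold. Thus the direction was shared and the 2-fold call rested on 1 probe set. The mean of both probe sets gave log2 differences from IPE of -0.99 in CBPE and -0.91 in RPE, just short of 2-fold, and quantile normalization gave -0.93 in RPE. A fixed floor of 100 gave -0.83 in both. The probe sets again ranked CBPE and RPE in opposite orders.

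Atp6ap2, the prorenin receptor and V-ATPase accessory subunit, was bright on all arrays. Its 3 probe sets gave 1199, 2002 and 1710 in IPE, 1100, 2046 and 1087 in CBPE and 1312, 2770 and 2445 in RPE. RPE was highest by all 3, by 1.19-fold, 1.35-fold and 2.25-fold over CBPE and by 1.09-fold, 1.38-fold and 1.43-fold over IPE. The 2.25-fold value came from 1 of the 2 probe sets whose suffix marks probes that can match several transcripts. By the probe set that represents the gene, the log2 difference was 0.44 against CBPE and 0.47 against IPE, above the SD of 0.29 and level with that of 0.45. CBPE and IPE were not ordered, since the probe sets disagreed in sign.

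**Figure D3:**
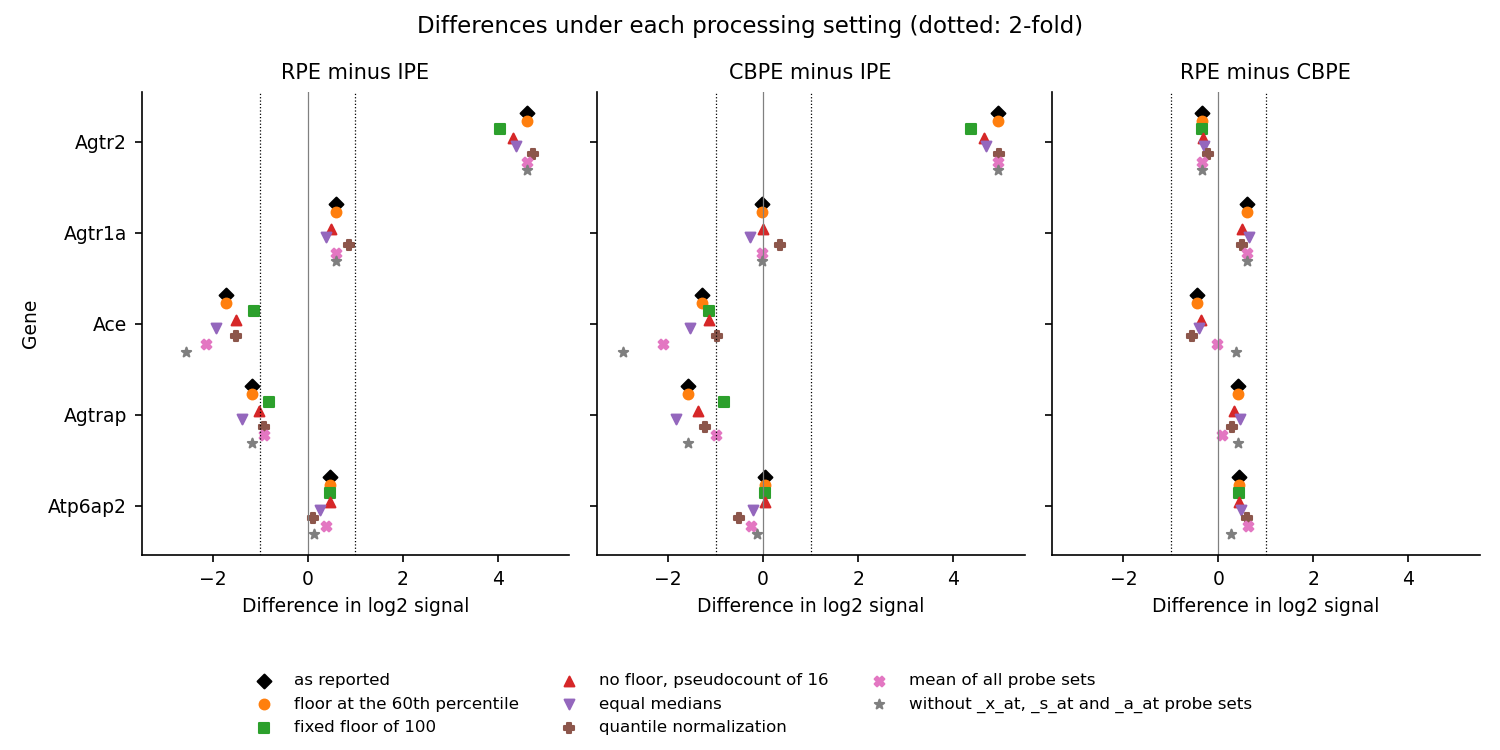
Difference in log2 signal of 5 genes under the reported setting (black diamonds) and 7 alternatives, 1 panel per comparison, with 2-fold limits dotted. Agtr2 stays between 4.04 and 4.95 in the comparisons with IPE, Ace and Agtrap stay below 0 there, and Ace changes sign between RPE and CBPE.

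Genes with a pattern like that of Agtr2 were sought by Euclidean distance between log2 signals centred on each gene's own mean over the 3 arrays, among 10243 other genes above all floors. With 3 points per gene this likeness is a description. The nearest was Ptgis, the prostacyclin synthase gene, at a distance of 0.28, with 56.1 (IPE), 1307 (CBPE) and 1196 (RPE). Next came Gask1b (0.34), Myh2, a skeletal muscle myosin heavy chain (0.35), the microfibril gene Mfap5 (0.42), the matricellular gene Ccn5 (0.47) and Fmod, the small proteoglycan fibromodulin (0.47). Across the 6, IPE signals ran from 32.8 to 179.7, CBPE signals from 1307 to 4068 and RPE signals from 808.8 to 5075.

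**Figure D4:**
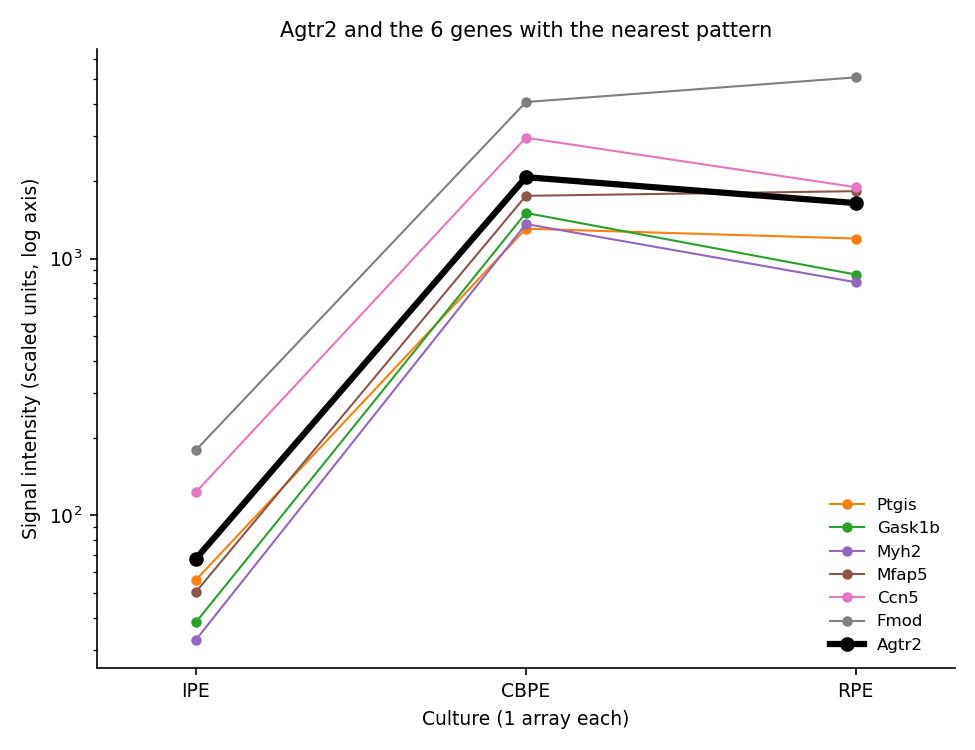
Signal intensity (log axis) of Agtr2 (thick black line) and its 6 nearest genes in IPE, CBPE and RPE, 1 array each; lines only join the points of a gene. Every gene is lowest in IPE, and Mfap5 and Fmod are highest in RPE where Agtr2 is highest in CBPE.

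Marker lists of connective cell types were also lowest in IPE by their summed signals, and their part in its values was not tested. The 5 tendon markers summed to 218.9 (IPE), 8465 (CBPE) and 7246 (RPE), and 3 of them, Tnmd, Mkx and Thbs4, were under the floor in IPE. Most of the CBPE and RPE sums came from Tnmd, at 4176 and 1973, and Fmod, at 4068 and 5075. Fmod is also 1 of the 6 genes named above for a pattern near that of Agtr2. Scx differed less, at 31.6 (IPE), 72.8 (CBPE) and 40.9 (RPE). The 8 smooth muscle and pericyte markers summed to 10920 (IPE), 27554 (CBPE) and 17951 (RPE), with Rgs5 and Cspg4 under the floor in IPE. Most of each sum was Acta2, at 5496, 14300 and 9769, and Tagln, at 3967, 6961 and 5078. Mcam was lowest in RPE, at 116.9, 321.2 and 103.5, and the 2 probe sets of Pdgfrb disagreed in sign against IPE. Myh11 of that list was instead highest in IPE by the brighter of its 2 probe sets, at 99.4, 22.1 and 40.0, while the other had CBPE above IPE. The 10 fibroblast and mesenchyme markers summed to 24087, 45255 and 33432, all above the floor on every array. In RPE minus IPE, 4 of these 10 were higher by 2-fold or more and 2 were lower, against 9.87% and 10.5% of all genes. In CBPE minus IPE 5 were higher and 1 was lower, against 11.8% and 12.5%. Pdgfra, at 2020.3, 776.6 and 958.1, and Fap, at 364.8, 318.9 and 259.0, were highest in IPE. By the brighter of its 2 probe sets Dcn was lowest in RPE, at 5566, 6163 and 2707, but the other had RPE highest. The 9 skeletal muscle markers summed to 135.6, 140.7 and 726.9. Of 6 tested between RPE and IPE, 4 were at least 2-fold higher in RPE, against 9.87% of all genes. These were Acta1, Myl1, Mylpf and Tnnc2, all under the floor in IPE. They entered the count through RPE and could not come out lower in RPE, so nothing is read from that count. Myl1 was at 7.0, 29.0 and 270.6 and Mylpf at 14.3, 19.8 and 207.7. Des was highest in IPE by the brighter of its 2 probe sets, at 91.3, 28.5 and 32.4, while the other had CBPE above IPE. By the probe sets that represent them, Myod1, Myog and Ckm were under the floor everywhere. In bulk RNA, more cells of a type and more RNA per cell cannot be told apart.

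By the labels, over 99% of IPE cells were cytokeratin positive, as were over 95% of CBPE and RPE cells after 14 days. No culture time was recorded for IPE, so its cultures may differ from the others in age. Of 4 simple epithelial keratins, Krt18 was at 144.1 (IPE), 422.4 (CBPE) and 218.6 (RPE), Krt8 at 17.4, 95.3 and 26.2, Krt19 at 39.9, 25.8 and 2.2 and Krt7 at 2.9, 17.0 and 21.9. Of the 5 markers of differentiated retinal pigment epithelium, 1 was above the floor in RPE, Rlbp1 at 17.3, close to that floor of 16.8. Rpe65 was at 2.4 in RPE. In IPE, Rlbp1 was at 84.0. Best1, at 25.1, and Ttr, at 41.1, were above the floor in CBPE only. The 4 photoreceptor markers measured were under the floor on every array. The 8 macrophage and leukocyte markers summed to 223.3, 1790 and 356.7 in IPE, CBPE and RPE, and most of that was Lyz2, at 130.9, 1288 and 231.6. Tyrobp, Adgre1 and Csf1r were under the floor in IPE only. Cd68 was lowest in RPE, at 39.4, 72.3 and 25.5. By the probe sets that represent them, Ptprc, Itgam and C1qa were under the floor on every array. The 5 glial markers summed to 2651, 373.4 and 825.2, highest in IPE, and most of that was Glul, at 2558, 309.6 and 743.2. The other glial markers were dim and did not share 1 order. Slc1a3 was highest in RPE, at 25.7, 14.4 and 47.2, and S100b was at 35.9, 27.4 and 30.6. Gfap was above the floor in IPE only, at 17.1, and Aqp4 in CBPE only, at 20.8. The part of these lists in the values of Agtr2 was not tested.

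The rest of the pathway was described by 5 lists of 83 genes, of which 71 had a probe set of their own. The unmatched genes are not analysed here. Of the 57 tested between RPE and IPE, 8 were at least 2-fold higher and 6 lower, 14.0% and 10.5%, against 9.87% and 10.5% of all genes. Of the 59 tested between CBPE and IPE, 7 were higher and 7 lower, 11.9% each, against 11.8% and 12.5%. Between RPE and CBPE, 2 of 59 were higher and 7 lower, 3.39% and 11.9%, against 3.75% and 4.26%. The medians of the log2 differences were 0.13, 0.17 and -0.11, and those of all genes 0.02, 0.04 and -0.0020. The shares against IPE lie near those of all genes. Scaling the arrays to equal medians gave 10 lower in RPE and 11 lower in CBPE, while the share of called genes that were higher outside the iris fell to 28.9% and 28.5% over all genes, from 48.5% in both. With a fixed floor of 100, 5 were higher in RPE and 4 in CBPE than in IPE, and 2 lower in RPE than in CBPE. With the mean of all probe sets, 4 were higher in RPE than in IPE.

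Of 11 enzymes that cut angiotensin peptides and were tested between RPE and IPE, 3 were at least 2-fold higher in RPE and none lower, against 9.87% and 10.5% of all genes, and the median log2 difference was 0.38. Mme encodes neprilysin, which converts angiotensin I to angiotensin 1-7, and gave 20.2 (IPE), 39.4 (CBPE) and 109.6 (RPE). RPE was 5.43-fold above IPE and 2.78-fold above CBPE, with both probe sets in the same order, although the IPE signal is near the floor. Prcp, a carboxypeptidase that also trims angiotensin II, was at 76.4, 116.7 and 225.6, and Thop1, an endopeptidase that can form angiotensin 1-7, at 51.1, 73.6 and 121.8. Both were highest in RPE, 2.95-fold and 2.38-fold above IPE. None of 10 enzymes tested was 2-fold different between CBPE and IPE, against 24.3% of all genes. The aminopeptidases that degrade angiotensin II and III were dim, Enpep at 35.2, 58.4 and 45.9 and Anpep at 30.5, 57.8 and 36.7. The mast cell and neutrophil proteases that can form angiotensin II, Cma1, Mcpt4 and Ctsg, were under the floor on every array.

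Among other receptors and hormones of the pathway, few were measurable. Mas1, the receptor of angiotensin 1-7, the bradykinin receptor gene Bdkrb1 and the aldosterone synthase gene Cyp11b2 were under the floor on every array. Of 6 genes tested between CBPE and IPE, 2 were at least 2-fold higher and 1 lower, against 11.8% and 12.5% of all genes. Kng1, the kininogen gene, reached 57.0 in CBPE, with 3.5 in IPE and 14.1 in RPE under the floors, or at least 3.93-fold over IPE and at least 3.39-fold over RPE. The kallikrein gene Klk1 measured 74.1 in CBPE against 34.1 in IPE, a ratio of 2.17. That probe set has the suffix _x_at, for probes that can match several transcripts. Of its 4 probe sets 2 were compared, both with CBPE higher. The mineralocorticoid receptor gene Nr3c2, whose product aldosterone activates, was at 52.0 in IPE and 26.5 in RPE but 3.5 in CBPE, at least 2.57-fold below IPE. None of the 4 tested was 2-fold different between RPE and IPE, against 20.3% of all genes. Igf2r, which can also bind renin and prorenin, was at 330.3, 550.6 and 381.6 in IPE, CBPE and RPE.

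Among the 15 receptor partners tested between RPE and IPE, 2 were at least 2-fold higher and 3 lower, against 9.87% and 10.5% of all genes. Between CBPE and IPE 1 was higher and 2 lower, against 11.8% and 12.5%. Of 14 tested between RPE and CBPE, 1 was higher and 3 lower, against 3.75% and 4.26%. Mtus1, which encodes a protein that interacts with the type 2 receptor, was at 226.4 (IPE), 42.7 (CBPE) and 46.9 (RPE). IPE was 5.30-fold and 4.83-fold above the others, with all 3 probe sets in that direction, so Mtus1 was highest where Agtr2 was lowest. Rgs2, which restrains Gq signals such as those of the type 1 receptor, was at 397.6 (IPE), 43.4 (CBPE) and 119.4 (RPE). All 4 of its probe sets had IPE highest, by 9.16-fold and 3.33-fold in the brightest. Rgs4, a related regulator, went the other way, at 6.3 in IPE, under the floor, against 86.8 and 46.1, or at least 5.99-fold and 3.18-fold above it. The arrestin gene Arrb1 was lowest in RPE, at 20.6 against 68.4 in IPE and 66.8 in CBPE. Dusp1, at 326.7, 572.2 and 184.5 in IPE, CBPE and RPE, and Plcb3, at 102.1, 151.2 and 66.6, were also lowest in RPE. Each has 1 probe set, with CBPE 3.10-fold and 2.27-fold above RPE. For Gnaq, the G protein that carries type 1 receptor signals, the brightest probe set had RPE 3.47-fold above IPE, but of 6 probe sets compared 3 pointed each way. Zbtb16 encodes a transcription factor that can bind the type 2 receptor. The brightest of its 3 probe sets was above the floor in IPE only, at 16.3, close to that floor of 14.5. Between RPE and CBPE 1 other probe set was compared, and CBPE was higher.

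Of the V-ATPase subunits, the partners of Atp6ap2, 15 of 17 tested between RPE and IPE were within 2-fold, as were 15 of 18 between CBPE and IPE and 18 of 18 between RPE and CBPE. Over all genes the shares within 2-fold were 79.7%, 75.7% and 92.0%. The list had medians of 0.22, 0.09 and -0.03. The exceptions were Atp6v0e, at 1227 (IPE), 3341 (CBPE) and 2739 (RPE), and Atp6v1h, at 373.9, 850.5 and 765.6, both lowest in IPE. Atp6v1b2 favoured IPE over CBPE by 2.43-fold, at 806.6 against 331.6, but 1 of its 3 probe sets compared went the other way. Atp6ap1, the other accessory subunit, was at 1220.1, 1347 and 1325. The subunit isoforms Atp6v0a4, Atp6v0d2, Atp6v1c2 and Atp6v1e2 were under the floor on every array.

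Genes known to respond to angiotensin II were described in the same way. Of 10 tested in RPE minus IPE, 1 was at least 2-fold higher and 3 were lower, against 9.87% and 10.5% of all genes. In CBPE minus IPE 2 were higher and 3 lower, against 11.8% and 12.5%. In RPE against CBPE none was higher and 3 were lower, against 3.75% and 4.26%. Ccl2, a monocyte chemokine gene, was higher where Agtr2 was, at 1249 (IPE), 3851 (CBPE) and 3175 (RPE). The vascular growth factor gene Vegfa was at 720.4, 196.5 and 55.4, the cytokine gene Il6 at 500.0, 221.0 and 111.4 and the endothelin gene Edn1 at 86.7, 49.0 and 16.8, the last at the floor. All 3 were highest in IPE and lowest in RPE. Nox4, which makes hydrogen peroxide, favoured IPE over CBPE by 2.50-fold, at 129.6 against 51.8, and Fos was highest in CBPE, at 370.7 against 115.9 and 144.8. Ccn2, a fibrosis gene, was at 6204 (IPE), 10615 (CBPE) and 6090.4 (RPE), below 2-fold in all pairs. These genes answer many other signals.

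**Figure D5:**
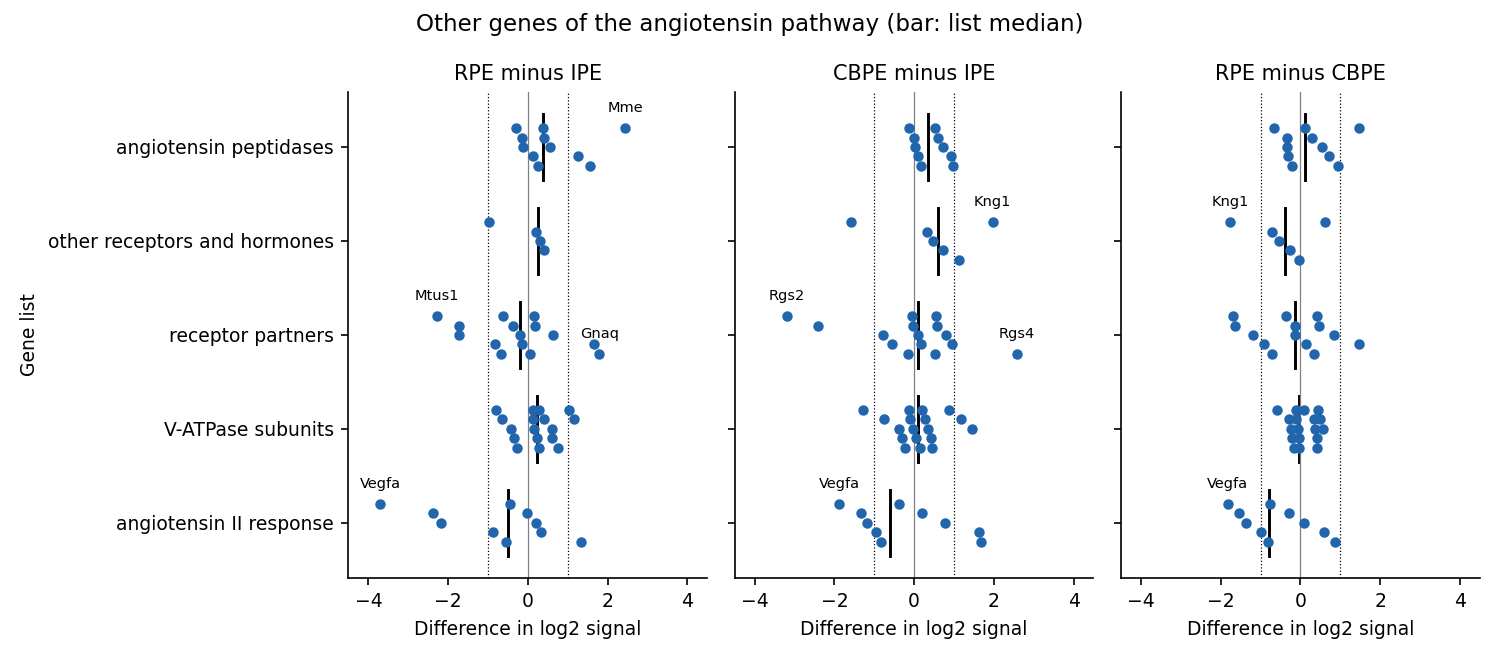
Difference in log2 signal of the tested genes of 5 pathway lists, 1 panel per comparison, with a bar at each list median and dotted 2-fold limits; points beyond 1.7 at the ends of a list are named. V-ATPase subunits cluster near 0, with a median of -0.03 and none beyond 2-fold in RPE minus CBPE, while receptor partners spread from Mtus1 at -2.27 to Gnaq at 1.80 in RPE minus IPE.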

How the data were processed

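Biotin-labelled RNA from 3 cultures was measured on 1 array each. Per the labels' protocols, labelled RNA was made by in vitro transcription with Affymetrix reagents. The authors deposited 1 linear intensity per probe set and array (45101 probe sets, 64 of them controls); which software summarised the probes is not given in the sources used here. On every array the 2% trimmed mean was 100.001, so the deposited intensity values had been scaled to a common target. Array number limits the precision.

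Names came from a platform annotation of 2016, updated to the RefSeq gene table of GRCm38.p6. Of 35890 listed probe sets, 34945 non-control ones had 1 gene; 932 had several and 9160 were not listed, and neither were named. Signals under the floor (50th percentile) were set to it before log2. Where a gene had several probe sets, the one with the highest mean log2 signal stands for it. Where the dim signal was at or under its floor, or under 20.2 in CBPE, a fold is over that value and is written as at least. Named pathway genes were up to 4 per list and comparison at 2-fold or more, by mean signal; the others were chosen after their values were seen, as examples of a list or a role. The members and lists were chosen with earlier results of these data known. The calling step was tested on simulated data only for bright genes with planted changes larger than 2-fold. That test does not cover genes near the floor or changes close to 2-fold. The calculations used Python 3.11.15, numpy 2.4.6, pandas 2.3.3, scipy 1.17.1 and matplotlib 3.10.9.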

Additional observations from a re-analysis of the deposited data

How the results depend on the processing

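The alternatives were a floor at the 60th percentile, a fixed floor of 100, no floor with a pseudocount of 16, equal medians, quantile normalization, the mean of all probe sets of a gene, and leaving out probe sets with the suffix _x_at, _s_at or _a_at. Agtr2 kept its direction under all 7; with the fixed floor of 100, above its IPE signal, its log2 difference from IPE was 4.04 in RPE and 4.37 in CBPE. The count of members at least 2-fold different from IPE was 2 or 3 in both comparisons under every alternative, and 0 between RPE and CBPE. With the fixed floor, pathway list genes higher in RPE than in IPE fell from 8 to 5, higher in CBPE than in IPE from 7 to 4, higher in RPE than in CBPE from 2 to 0 and lower there from 7 to 2, as signals under 100 are set to it and fewer genes are tested. With the mean of all probe sets, 4 were higher in RPE than in IPE and 1 higher in RPE than in CBPE; the cause was not tested. With equal medians, 10 were lower in RPE than in IPE, against 6, and 11 lower in CBPE than in IPE, against 7; the median log2 difference of all genes was then -0.20 and -0.22, and 28.9% and 28.5% of the genes called were higher outside the iris, against 48.5% in both as deposited. Ace differed from IPE by -2.57 in RPE and -2.95 in CBPE without suffixed probe sets, and by -0.97 in CBPE after quantile normalization, short of 2-fold. After quantile normalization the median of all genes was 0.13 in CBPE minus IPE. Signals near the floors limit Agt, Agtr1b and the dimmer Ace probe set. No 2-fold difference of a member changed sign. No paired analysis was possible because each group has 1 sample.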
